A study of Mus musculus with 22 samples.

Results

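The 31 genes described here encode the machinery that makes cholesterol and fatty acids and the regulators that set its output. They are the members of a list of genes driven by the sterol regulatory element-binding proteins (SREBPs), and all 31 were found by symbol both among the 53801 gene identifiers of the bulk count tables and among the 19324 genes of the single-cell matrix. By role they comprise 5 regulators, 7 genes of the mevalonate and isoprenoid steps, 11 genes from squalene to cholesterol, 6 genes of acetyl-CoA supply and fatty acid synthesis, and 2 others, Stard4 and Lpin1. The study asked what the loss of the adiponectin receptor ADIPOR1 does to the mouse eye. Bulk RNA-Seq at P30 covered the neural retina and the retinal pigment epithelium (RPE, the cell layer behind the photoreceptors, shaken off the eyecup and pelleted), and each tissue gave 4 WT libraries and 4 libraries of AdipoR1-/- (KO) mice. Single-cell RNA-Seq of papain-dissociated retinas gave a WT and a KO library at each of P19, P25 and P30, and as each of these 6 libraries pooled 4 retinae, no single age has a replicate. All mice carry the strain label C57BL/6J, both sexes were used, and the KO is a constitutive, whole-body allele that was made elsewhere and backcrossed, so the RPE and the retina of a KO animal lack the receptor together.

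Cells make cholesterol from acetyl-CoA through mevalonate, farnesyl pyrophosphate, squalene and lanosterol, and they make fatty acids from the same acetyl-CoA. When the membrane of the endoplasmic reticulum is poor in sterol, SCAP escorts the SREBPs to the Golgi, where they are cut, and the freed part enters the nucleus and switches on these genes; when sterol is plentiful, the INSIG proteins hold SCAP back. Photoreceptors rebuild their membrane-rich outer segments every day, and the RPE engulfs the shed tips and takes up cholesterol-carrying lipoproteins from the choroidal blood.

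The knockout was visible in every library. Adipor1 stood at 599.9 ± 8.09 CPM (a count relative to the TMM-scaled library total, mean ± SD, n = 4) in WT retina and 138 ± 2.45 in KO retina (log2 fold change -2.11 ± 0.04, adjusted p = 4.61e-13), and at 409 ± 48.6 and 145 ± 5.79 in RPE (log2 fold change -1.49 ± 0.09, adjusted p = 0.000207). Fold changes are given as log2 of KO over WT ± standard error, and adjusted p values are Benjamini-Hochberg values over all genes. In single rods the KO libraries held 113, 341 and 267 Adipor1 UMIs at P19, P25 and P30, against 723, 497 and 1277 in WT. Bulk libraries held 20133143 to 38409496 counts. The summed level of 9 rod markers was 55797 to 62037 CPM in WT retina and 26537 to 31140 in KO retina, and all 9 fell. The RPE libraries carried their own markers at 32194 to 50081 CPM in WT and 41795 to 43938 in KO. They also held rod RNA, which was highest in WT RPE libraries 2 and 3 (15633 and 15947 CPM, against 1277 to 5215 in the other 6). In KO RPE too, libraries 2 and 3 held more (3881 and 5215 CPM) than libraries 1 and 4 (1277 and 1635 CPM). Lens markers were highest in WT RPE libraries 2 and 4 (399 and 856 CPM, against 17.6 to 40.5 in the other 6). In bulk tissue, fewer cells of a type and less RNA per cell cannot be told apart.

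In the KO retina more of the synthesis genes rose than fell. Of the 31 members, 17 rose and 1 fell at an adjusted p below 0.05 (edgeR quasi-likelihood test), where 16.2% of all 19381 genes tested rose and 14.7% fell (30.9% called in either direction). The median log2 fold change of the members was 0.19, against 0.0036 over all genes, and 26 of the 31 values were above 0. In 16 members every KO library stood above every WT library, a pattern seen in 16.1% of all genes, and in 1 member every KO library stood below (15.3% of all genes). With a fold change of at least 1.5 required as well, 4 members rose, Pmvk, Scd1, Scd2 and Stard4, where 7.0% of all genes did. With both tissues in one fit 11 members rose and 1 fell, where 8.16% of 21068 genes rose, and without TMM scaling 24 rose and 1 fell, where 30.2% of 19381 genes rose.

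Among the regulators, both SREBP genes and Insig1 rose in the retina, whereas Scap and Insig2 did not pass the test. Srebf2, whose product drives the sterol genes (chromosome 15, 82147181 to 82205379, mm10), was measured at 136, 168, 149 and 159 CPM in the 4 WT libraries and at 212, 203, 230.0 and 239.6 in the 4 KO libraries (log2 fold change 0.53 ± 0.07, adjusted p = 3.36e-05). Every KO library exceeded every WT library. Srebf1, whose product drives mainly the fatty acid genes, had 88.2, 95.4, 76.5 and 75.2 CPM in WT and 118, 108, 118 and 120.1 CPM in KO (log2 fold change 0.47 ± 0.07, adjusted p = 0.000163). Insig1, which encodes the retention protein that is itself an SREBP target, had 93.1, 87.3, 81.6 and 85.4 CPM in WT and 110.5, 116, 116 and 110.1 in KO (log2 fold change 0.38 ± 0.04, adjusted p = 2e-05), again without overlap. Scap, the escort, had a log2 fold change of -0.02 and Insig2 one of -0.04, and both values were above 0 without TMM scaling.

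The largest change of any member in the retina was that of Scd1, a stearoyl-CoA desaturase that makes monounsaturated fatty acids (chromosome 19, 44394455 to 44407879). Its WT libraries held 15.1, 15.3, 13.3 and 12.2 CPM and its KO libraries 50.2, 52.0, 58.2 and 57.0 CPM, a 3.89-fold rise (log2 fold change 1.96 ± 0.08, adjusted p = 9.1e-10). Scd2, the desaturase next to it (chromosome 19, 44293674 to 44306864), held 383, 439, 393 and 401 CPM in WT and 663, 661, 694 and 663 CPM in KO, 1.66-fold higher (log2 fold change 0.73 ± 0.05, adjusted p = 1.86e-07). Both sets of libraries were fully separated. The desaturase genes are paralogs, and whether the counting divided shared reads between them was not tested. Acaca, the acetyl-CoA carboxylase that commits carbon to fatty acids, also rose (log2 fold change 0.20 ± 0.04, adjusted p = 0.00235), and Fasn, the fatty acid synthase, did not pass the test (log2 fold change 0.14 ± 0.06, adjusted p = 0.0845). Acly, which releases acetyl-CoA from citrate, had the smallest value of the role group (log2 fold change 0.01).

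On the way to mevalonate and isoprenoids, 3 of 7 genes rose in the retina, and Pmvk stood out. Pmvk encodes phosphomevalonate kinase (chromosome 3, 89454541 to 89469013) and was at 41.6, 41.0, 40.8 and 40.1 CPM in WT and 73.9, 73.3, 76.1 and 76.5 CPM in KO, 1.83-fold higher (log2 fold change 0.87 ± 0.04, adjusted p = 3.36e-09). Hmgcs1, the synthase that makes HMG-CoA, rose by far less, from 163, 162, 158 and 159 CPM in WT to 169, 177, 188 and 170.2 CPM in KO (log2 fold change 0.14 ± 0.04, adjusted p = 0.0188), and its adjusted p was 0.0538 when replicate pairs were blocked. Idi1, the isomerase of the isoprenoid units, rose (log2 fold change 0.22 ± 0.06, adjusted p = 0.0108), and Mvd, the decarboxylase, had the smallest value (log2 fold change 0.05 ± 0.07, adjusted p = 0.66).

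From squalene to cholesterol, 7 of 11 genes rose in the retina. Cyp51, the lanosterol demethylase, had 60.8, 59.8, 62.8 and 64.5 CPM in WT and 86.2, 90.6, 103 and 91.3 CPM in KO (log2 fold change 0.58 ± 0.05, adjusted p = 2.47e-06). Sqle, the epoxidase that is a rate-limiting step of the branch, had 55.5, 52.5, 49.2 and 54.5 CPM in WT and 69.2, 66.4, 75.8 and 67.8 in KO (log2 fold change 0.40 ± 0.05, adjusted p = 8.07e-05). In both genes the KO libraries lay above all WT libraries. Fdft1, Lss, Msmo1, Ebp and Dhcr7 rose by 0.19 to 0.30 on the log2 scale, and Hsd17b7 had the lowest value (log2 fold change -0.09 ± 0.11, adjusted p = 0.603). Stard4, which carries cholesterol between membranes, was at 32.4, 30.8, 30.0 and 32.0 CPM in WT and 45.6, 48.8, 48.1 and 47.6 in KO (log2 fold change 0.60 ± 0.05, adjusted p = 8.26e-07). Lpin1, a phosphatidate phosphatase of triglyceride and phospholipid synthesis, was the member that fell, from 70.1, 77.8, 72.8 and 75.8 CPM to 51.4, 48.5, 58.6 and 55.1 CPM (log2 fold change -0.47 ± 0.06, adjusted p = 3.99e-05).

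Several cell type lists moved with this result. Beside the lower rod markers, 7 of 10 Müller cell markers rose and 1 fell (summed level 4507 to 4906 CPM in WT and 5810 to 6236 in KO), as did 9 of 9 microglial markers (44.8 to 48.1 and 186 to 224 CPM). Endothelial markers were at 269 to 323 CPM in WT and 447 to 474 in KO (3 of 7 rose), astrocyte markers at 536 to 581 and 748 to 831 (1 of 4 rose), bipolar cell markers at 1666 to 1696 and 1809 to 1849.6 (4 of 11 rose) and fibroblast markers at 21.01 to 26.9 and 33.7 to 111 (4 of 5 tested rose). Cone markers were lower in each KO library (1511 to 1699.6 and 1393 to 1502 CPM, with 1 of 8 up and 2 down), as were horizontal cell markers (85.2 to 93.0 and 74.2 to 82.4 CPM, with 1 of 4 up and 2 down). Amacrine cell markers overlapped (1198 to 1342 and 1281 to 1342 CPM). Their part in the bulk values was not tested, and the values within single cell classes are given further on.

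In the KO RPE, 18 of the 31 genes fell and 0 rose at an adjusted p below 0.05, where 3.89% of the 18989 genes tested fell and 2.84% rose (6.73% called in either direction). DESeq2 and limma-voom also called 0 higher, and 0 were higher at an unadjusted p below 0.05. The median log2 fold change of the members was -0.47, against -0.0185 over all genes, and 29 of the 31 values were below 0. In 22 members all KO libraries were lower than all WT libraries, a pattern seen in 7.81% of all genes. A fold change of at least 1.5 was reached by 9 of the 18, where 2.95% of all genes passed both criteria in that direction.

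The regulators that rose in the retina fell in the RPE. Insig1 had the largest fall of any member, from 169, 134, 126 and 105 CPM in WT to 56.4, 56.9, 48.4 and 58.0 CPM in KO, 2.43-fold lower (log2 fold change -1.28 ± 0.14, adjusted p = 0.00199). Srebf1 went from 234, 230.1, 182 and 181 CPM to 119, 129, 133 and 108 CPM (log2 fold change -0.76 ± 0.11, adjusted p = 0.00747). Srebf2 went from 219, 224, 203 and 222 CPM to 153, 159, 163 and 155 CPM (log2 fold change -0.46 ± 0.05, adjusted p = 0.00243). None of these groups overlapped. Scap (log2 fold change -0.08) and Insig2 (0.04) again did not pass the test.

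The sterol enzymes of the RPE fell at most steps, with 5 of 7 genes of the mevalonate and isoprenoid steps and 8 of 11 from squalene to cholesterol called. Msmo1, a methylsterol monooxygenase (chromosome 8, 64718139 to 64733792), had the smallest p of all members, with 161, 126, 151 and 149.7 CPM in WT and 67.2, 69.3, 70.5 and 74.1 CPM in KO, 2.09-fold lower (log2 fold change -1.06 ± 0.08, adjusted p = 0.00048). Idi1 was at 49.6, 39.4, 46.6 and 47.3 CPM in WT and 21.6, 24.1, 24.5 and 22.7 CPM in KO (log2 fold change -0.98 ± 0.09, adjusted p = 0.000757). Sqle was at 108, 92.6, 91.1 and 92.6 CPM in WT and 58.4, 61.8, 66.0 and 62.8 in KO (log2 fold change -0.63 ± 0.07, adjusted p = 0.00229). In all of these the KO libraries were lower than every WT library. Hmgcs1 was at 189.7, 158, 169 and 145 CPM in WT and 108, 118, 113 and 109 CPM in KO (log2 fold change -0.57 ± 0.09, adjusted p = 0.00749). Pmvk, the leading mevalonate gene of the retina, was at 33.5, 40.01, 35.9 and 41.7 CPM in WT RPE and 29.7, 37.8, 41.2 and 34.4 CPM in KO RPE, with overlapping groups (log2 fold change -0.08 ± 0.12, adjusted p = 0.724), and Ebp, a sterol isomerase, had the highest value of its group (log2 fold change 0.16 ± 0.10, adjusted p = 0.436). The other called enzymes of these steps, Acat2, Mvk, Mvd, Fdft1, Lss, Cyp51, Tm7sf2, Nsdhl and Hsd17b7, had log2 fold changes from -0.89 for Hsd17b7 to -0.33 for Mvk.

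In fatty acid synthesis, 2 of 6 genes fell in the RPE. Fasn was at 213, 227, 197 and 169 CPM in WT and 126, 136, 151 and 126 CPM in KO (log2 fold change -0.58 ± 0.10, adjusted p = 0.0149). Scd2 was at 829.6, 813, 699.9 and 782 CPM in WT and 509.6, 561, 593 and 507 CPM in KO (log2 fold change -0.53 ± 0.09, adjusted p = 0.0105). Scd1, which rose most in the retina, had 40.5, 37.8, 32.6 and 46.7 CPM in WT and 32.3, 32.1, 34.9 and 25.8 in KO, with overlapping groups (log2 fold change -0.33 ± 0.13, adjusted p = 0.203). Acly had the value nearest to 0 (log2 fold change -0.09). Stard4 (log2 fold change -0.57 ± 0.17, adjusted p = 0.105) and Lpin1 (log2 fold change -0.16 ± 0.09, adjusted p = 0.358) did not pass the test. With the replicate block, Acat2, Mvk and Lss were no longer called (adjusted p = 0.0641, 0.0711 and 0.0758) and Acaca was (adjusted p = 0.049). Without WT RPE libraries 2 and 3, which held the most rod RNA, 15 members fell and 0 rose, where 4.84% of 19349 genes fell. That fit kept KO RPE libraries 2 and 3, with more rod RNA (3881 and 5215 CPM) than the WT libraries kept (2018 and 2533 CPM). With the rod marker level as a covariate 20 fell, where 5.73% of 18989 did. In KO RPE, 8 of 9 microglial markers rose (382 to 626 CPM in WT and 721 to 806 in KO). The summed level of the Müller list was higher in each KO library (16756 to 25023 and 25444 to 25775 CPM, 1 of 10 markers called). The median log2 fold change of its markers was -0.145, so the sum does not stand for the list. In retina the list was at 4507 to 6236 CPM, and in the RPE libraries it is not read as a measure of Müller cells. The part of these lists in the result was not tested.

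**Figure D1:**
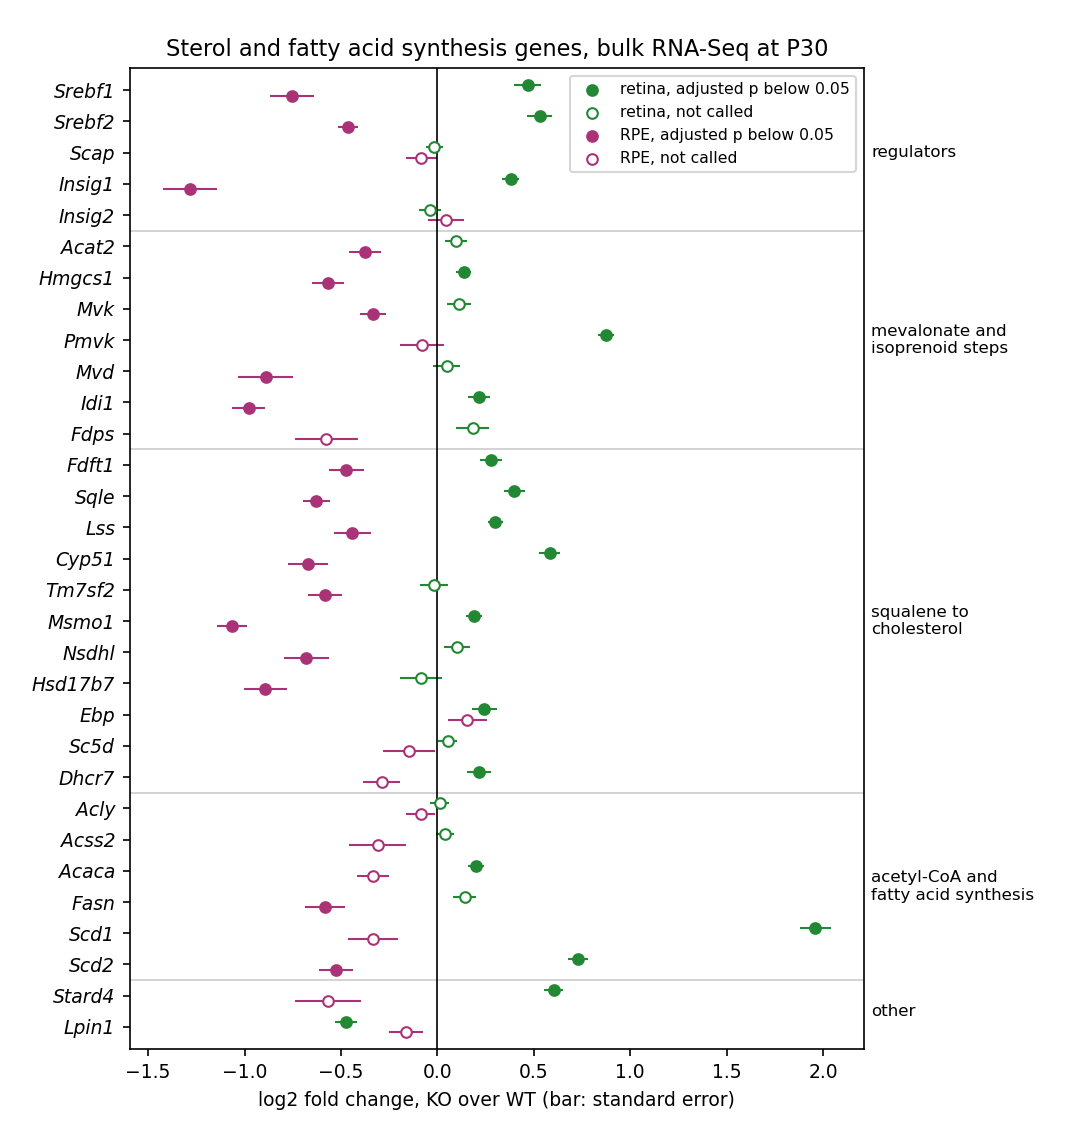
Log2 fold change of KO over WT for each of the 31 genes (y axis, by role) in bulk retina (green) and bulk RPE (purple), with 4 libraries per group, bars for the standard error and filled points for an adjusted p below 0.05. The retina points lie mostly right of 0 with Scd1 at 1.96, and the RPE points mostly left of 0 with Insig1 at -1.28.

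Whether the KO effect depended on the tissue was tested in a fit of all 16 libraries, which shares its libraries with the comparisons above. The KO effect was lower in the RPE than in the retina for 24 of the 31 members and higher for 0, where 5.73% of all 21068 genes were lower and 3.11% higher (8.84% in all). At an unadjusted p below 0.05, 1 member was higher, Lpin1, and DESeq2 and limma-voom gave 24 lower and 0 higher as well. The median difference between the effects was -0.73 over the members and -0.0532 over all genes. The smallest p values belonged to Scd1 (difference -2.27), Msmo1 (-1.23), Scd2 (-1.23) and Idi1 (-1.18), with adjusted p values of 1.04e-06, 1.04e-06, 4.94e-06 and 9.11e-06 in edgeR's quasi-likelihood test. Insig1 had a difference of -1.64, Srebf1 of -1.20, Srebf2 of -0.97, Sqle of -1.0 and Hmgcs1 of -0.68, and all 5 passed the test. The 7 members that did not pass were Scap, Insig2, Ebp, Sc5d, Acly, Acss2 and Lpin1. Called within each tissue on its own, 11 members both rose in the retina (of 17) and fell in the RPE (of 18), where 101 of all 17468 genes tested in both tissues did (0.578%). These 11 included both SREBP genes, Insig1, Hmgcs1, Sqle, Cyp51 and Scd2.

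**Figure D2:**
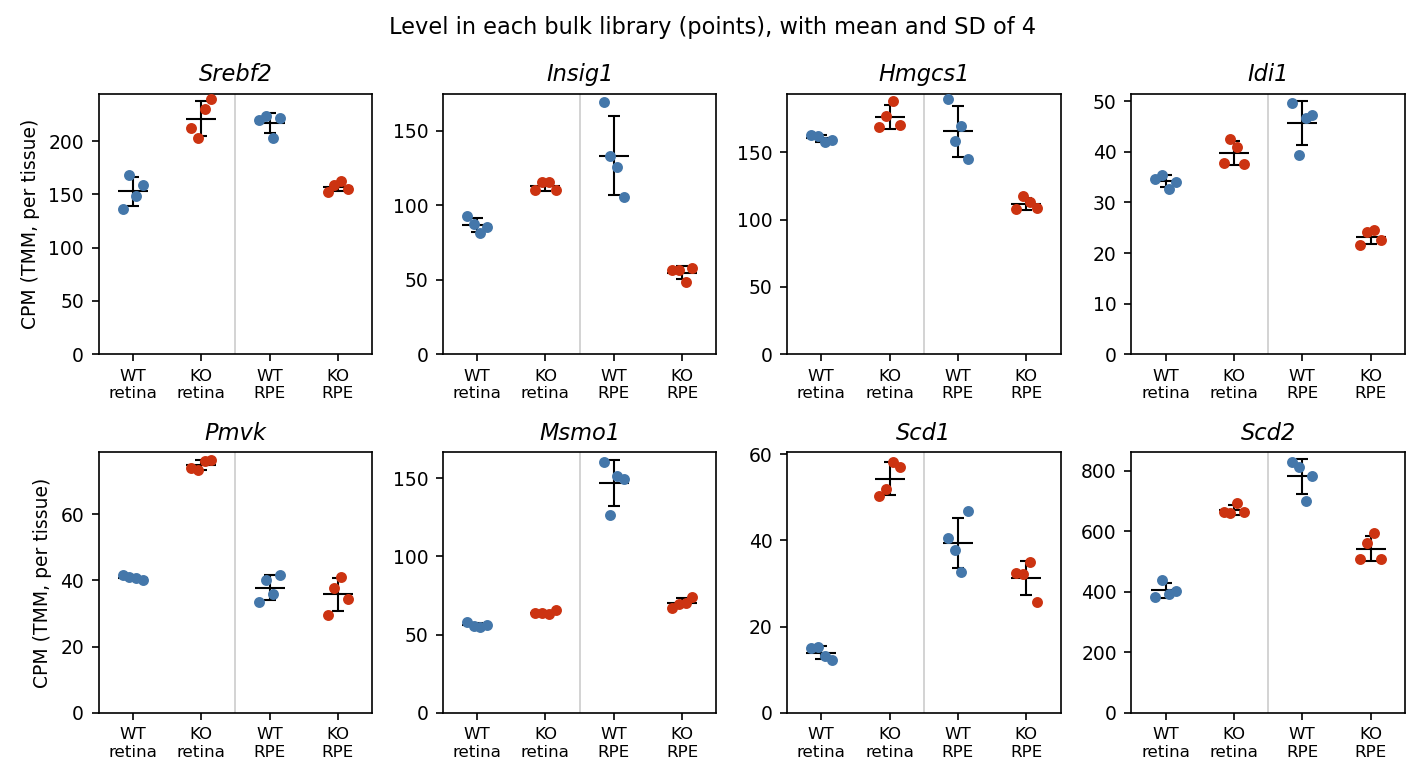
Level of 8 of the genes in each of the 16 bulk libraries (points, in CPM after TMM scaling within a tissue, so levels compare within a tissue), with the mean and SD of 4 libraries per group. In the retina the KO points (red) lie above the WT points (blue) for all 8 genes, and in the RPE they lie below for Srebf2, Insig1, Hmgcs1, Idi1, Msmo1 and Scd2 and overlap for Pmvk and Scd1.

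In WT mice the RPE expressed most of these genes above the retina. Of the 31 members, 23 were higher and 4 lower in WT RPE than in WT retina, where 43.0% of all genes were higher and 41.6% lower (84.6% in all). The median log2 difference was 0.69 over the members and 0.0127 over all genes. On a scale per exon length (RPKM), which lets genes be compared with each other, Scd2 had the highest level of all members in both tissues, 66.2 ± 4.02 in WT retina and 159 ± 8.22 in WT RPE. The level of Insig1 was 25.1 ± 1.41 RPKM in WT retina and 47.9 ± 9.20 in WT RPE, and that of Msmo1 was 8.19 ± 0.204 and 26.6 ± 2.65. All 5 regulators were higher in WT RPE (Srebf1 by 1.61 on the log2 scale, Scap by 1.14), as were Hmgcs1 (0.36), Sqle (1.17), Scd1 (1.80) and Scd2 (1.26). Acly (-0.69), Acss2 (-0.89), Stard4 and Lpin1 were lower. In KO mice, Scd2 stood at 109.6 ± 2.90 RPKM in KO retina and 112 ± 9.64 in KO RPE. Fdps, the farnesyl pyrophosphate synthase, had only 1.61 ± 0.115 RPKM in WT retina, and 1124 of its 4208 exonic bases are shared on the same strand with the annotated gene Gm43738, so its bulk counts are uncertain, as are those of Tm7sf2, which shares 532 bases with Vps51. Without a stated strand setting, reads of Acss2, Cyp51, Fdft1, Hmgcs1, Idi1, Lss, Scap and Srebf1 cannot be told apart from those of genes that overlap them on the opposite strand, the longest overlaps being 985 bases in Scap, 774 in Fdft1 (with Ctsb) and 557 in Hmgcs1.

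A further 31 genes of sterol and fatty acid metabolism that are no members were read in the same fits. Of these, 10 rose and 4 fell in the KO retina, where 16.2% of all genes rose and 14.7% fell, and 1 rose and 6 fell in the KO RPE, where 2.84% rose and 3.89% fell. In the retina, Fads2, a fatty acid desaturase, rose with the smallest p among those that rose (log2 fold change 1.14 ± 0.05, adjusted p = 1.77e-09). Abcg1, a cholesterol exporter (log2 fold change -0.73 ± 0.04, adjusted p = 2.02e-08), and Mylip, a ubiquitin ligase (log2 fold change -0.49 ± 0.06, adjusted p = 2.49e-05), had the smallest p among those that fell. In the RPE, Tmem97 (log2 fold change -0.76 ± 0.06, adjusted p = 0.000545) and Fads1 (log2 fold change -0.89 ± 0.08, adjusted p = 0.000818) had the smallest p among those that fell, and Soat1, which esterifies cholesterol, rose (log2 fold change 1.14 ± 0.14, adjusted p = 0.00327).

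The DNA before the members' starts was searched for the motifs of the factors known to act on such genes. RefSeq promoter windows of 300 bases (GRCm38.p6, 250 before and 50 from the gene start on) were found for 25 of the 31 members, 5 of which have more than 1 window; Fdps, Fdft1, Sqle, Scd1, Scd2 and Stard4 were not matched. The CCAAT box (CCAAT, either strand), which binds NF-Y, a usual partner of the SREBPs, was found in 21 of the 25 (84%), and in 41.1% of all 27025 genes with a window. The sterol regulatory element as TCACNCCAC, either strand, was found in Hmgcs1 among the members and in 1.44% of all genes, and its last 8 letters, CACNCCAC, which every longer match also holds, in Hmgcs1, Insig1 and Acat2 (7.12% of all genes). The palindromic E-box CACGTG was found in 5 members, Scap, Insig1, Hsd17b7, Sc5d and Dhcr7 (8.09% of all genes). A match is a run of letters and not a site shown to be bound. The stretches of 6 members are printed 5′ to 3′ on the strand of the gene, ending before the first annotated exon base, with matches to these motifs in capitals, because they cover regulators (Insig1, Srebf2), mevalonate steps (Hmgcs1, Pmvk, Mvd) and fatty acid synthesis (Fasn).
Insig1, chr5:28071162-28071362, plus strand: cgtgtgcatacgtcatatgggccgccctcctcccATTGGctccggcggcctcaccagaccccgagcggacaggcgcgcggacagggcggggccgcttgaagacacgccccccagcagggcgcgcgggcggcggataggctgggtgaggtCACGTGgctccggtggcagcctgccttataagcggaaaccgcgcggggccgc
Srebf2, chr15:82147019-82147180, plus strand: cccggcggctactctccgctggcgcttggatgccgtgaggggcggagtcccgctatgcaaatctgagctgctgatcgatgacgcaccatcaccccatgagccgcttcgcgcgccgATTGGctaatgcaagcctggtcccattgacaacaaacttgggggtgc
Hmgcs1, chr13:119690101-119690350, plus strand: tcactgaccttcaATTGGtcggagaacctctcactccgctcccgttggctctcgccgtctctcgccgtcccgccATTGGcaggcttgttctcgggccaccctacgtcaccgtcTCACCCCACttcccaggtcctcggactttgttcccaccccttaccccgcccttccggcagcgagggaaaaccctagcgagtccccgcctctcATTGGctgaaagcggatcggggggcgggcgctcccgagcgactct
Pmvk, chr3:89454291-89454540, plus strand: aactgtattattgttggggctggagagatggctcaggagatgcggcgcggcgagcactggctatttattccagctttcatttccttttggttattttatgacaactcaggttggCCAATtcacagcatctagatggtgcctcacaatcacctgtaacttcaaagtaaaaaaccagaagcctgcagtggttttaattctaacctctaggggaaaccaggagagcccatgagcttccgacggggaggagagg
Mvd, chr8:122443423-122443672, minus strand: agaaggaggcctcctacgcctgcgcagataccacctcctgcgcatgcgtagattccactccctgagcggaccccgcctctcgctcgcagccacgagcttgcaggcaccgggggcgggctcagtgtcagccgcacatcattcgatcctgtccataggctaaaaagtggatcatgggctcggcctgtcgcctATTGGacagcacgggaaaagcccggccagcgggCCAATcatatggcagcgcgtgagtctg
Fasn, chr11:120824548-120824797, minus strand: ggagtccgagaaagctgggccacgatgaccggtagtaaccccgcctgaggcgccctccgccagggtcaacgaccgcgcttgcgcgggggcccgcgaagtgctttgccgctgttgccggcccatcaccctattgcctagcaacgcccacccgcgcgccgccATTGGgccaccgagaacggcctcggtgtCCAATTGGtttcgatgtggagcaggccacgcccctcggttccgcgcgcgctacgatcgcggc
In these stretches Hmgcs1 carries TCACCCCAC at -137 from the gene start with CCAAT boxes at -237, -176 and -45. Insig1 carries CACGTG at -101, and Fasn a pair of CCAAT boxes that overlap head to head at -62 and -59. Pmvk, which rose in the retina and was not called in the RPE, carries a CCAAT box at -136.

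Within the retina, the genes were then followed in single cells. The matrix held 26764 cells, 49 of whose barcodes occurred in more than 1 library, and cells were clustered and the clusters named by marker genes, so that the rods and other classes here are rod-like clusters and the like. Of these cells, 8091 were rods, 6492 bipolar cells, 5211 amacrine cells, 2087 Müller cells and 1569 cones; clusters without a clear name held 6.49% to 12.1% of the cells of a library. Rods were found at 986, 783 and 1339 cells in WT and 1140, 1957 and 1886 in KO (P19, P25 and P30), with median depths of 1018 to 1203 UMIs. Rods of different libraries sat in different clusters: cluster 2 held most WT rods and cluster 0 most KO rods of P19 and P25, clusters 5 and 1 those of P30, and cluster 40, of 56 cells, was made almost only of deep KO P25 cells. The P30 libraries were sequenced in another batch than those of P19 and P25, so age and batch cannot be told apart there.

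More of the synthesis genes rose than fell in rods. Together the 31 made up 1022, 1005 and 947 CPM, here the share of all UMIs of the class, in WT rods at P19, P25 and P30, and 2029, 2255 and 1617 in KO rods, which is 1.99, 2.24 and 1.71 times as much. Over the 3 ages, with age in the model and 2 residual degrees of freedom, 13 members rose and 0 fell (limma-trend, adjusted p below 0.05), where 4.22% of the 11625 genes tested rose and 2.12% fell (6.33% in all). At an unadjusted p below 0.05 Lpin1 was lower, and edgeR on the same sums called 15 higher and 0 lower (4.69% and 2.63% of all genes). The median log2 ratio of the members was 0.67, against 0.01 over all genes. Of the 13, 12 also rose in the bulk retina (of 17), and the 13th was Fdps. No share over all genes stands beside this overlap, so the overlap is a description. Scd1 and Stard4, which are among the 12, passed the filter of at least 20 UMIs over the 6 libraries only through the KO rods. Their calls in rods are therefore counted but not read as support. Within the batch of P19 and P25, 18 members rose, where 8.82% of 10985 genes did. Without P25, 12 members rose, where 2.64% of genes did. Without P19, 15 rose and 1 fell, where 4.78% of genes rose and 3.14% fell. With an age left out, fewer residual degrees of freedom remained than the 2 of the main fit. In all these fits limma-trend also draws on the spread of other genes, so a larger count is not firmer than the 13.

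**Figure D3:**
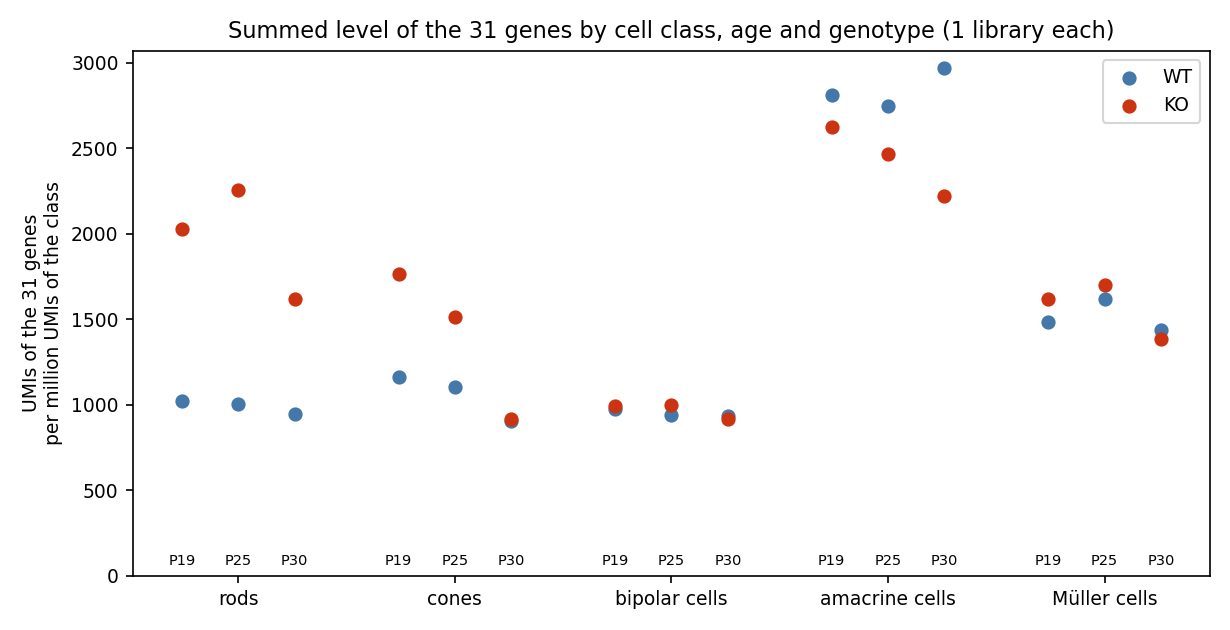
Summed level of the 31 genes in CPM of the UMIs of each cell class (y axis), for 5 retinal cell classes at P19, P25 and P30 in WT (blue) and KO (red), with 1 library per point. KO rods stand at 2029, 2255 and 1617 above WT rods at 1022, 1005 and 947, KO cones stand above WT cones at P19 and P25, and KO amacrine cells stand below WT amacrine cells at each age.

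Scd2 had the clearest values in rods. At P19 the rods held 57 UMIs in WT and 436 in KO, which is a level in CPM of 43.2 in WT and 309 in KO, and a log2 ratio with its exact 95% interval of 2.83 (2.44 to 3.26). At P25 they held 61 UMIs in WT and 1198 in KO (CPM of 61.5 in WT and 414 in KO, log2 ratio 2.74 (2.38 to 3.15)), and at P30 36 UMIs in WT and 153 in KO (CPM of 20.4 in WT and 65.3 in KO, log2 ratio 1.66 (1.15 to 2.25)). KO rods were above WT rods at each age by more than the counting error, which is all that these intervals cover. Over the ages the rise was 5.23-fold (log2 fold change 2.39 ± 0.20, adjusted p = 5.05e-06). Scd1 held 0, 0 and 2 UMIs in WT rods and 22, 112 and 41 in KO rods. Against a floor of 3 UMIs in the WT library, and leaving the counting error of the KO library aside, Scd1 was at least 6.86-fold higher at P19 and at least 12.8-fold higher at P25. With the counting error of both libraries, the exact 95% intervals of its log2 ratio began at 2.36 and 3.35. Its fitted log2 change depends on the prior count of 2 and is not given as a size. Scd1 passed the filter of at least 20 UMIs over the 6 libraries only through the KO rods. Its call by limma-trend is therefore not read as support.

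The regulators Srebf2 and Insig1 rose in rods, as did 4 of 7 genes of the mevalonate and isoprenoid steps and 4 of 11 from squalene to cholesterol. Insig1 held 17 UMIs in WT and 109 in KO at P19, 10 UMIs in WT and 168 in KO at P25 and 36 UMIs in WT and 131 in KO at P30 (log2 fold change 2.1 ± 0.23, adjusted p = 5.23e-05). The KO rods held more UMIs in all, 2895572 against 991576 in WT at P25. As a share, Insig1 stood at 12.9, 10.1 and 20.4 CPM in WT and 77.4, 58.0 and 55.9 CPM in KO. Srebf2 held 41 UMIs in WT and 120 in KO, 26 UMIs in WT and 226 in KO and 46 UMIs in WT and 106 in KO at the same ages (log2 fold change 1.24 ± 0.18, adjusted p = 0.000814). Srebf1 was higher in KO at P19 and P25 and lower at P30 (log2 ratios 0.46, 1.42 and -0.52) and did not pass the test (log2 fold change 0.45 ± 0.28, adjusted p = 0.41). Scap (log2 fold change 0.25 ± 0.20, adjusted p = 0.54) and Insig2 (log2 fold change 0.04 ± 0.16, adjusted p = 0.918) did not pass it either.

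Pmvk had the smallest p of all members in rods. It held 66 UMIs in WT and 237 in KO at P19, 71 UMIs in WT and 617 in KO at P25 and 108 UMIs in WT and 715 in KO at P30 (log2 fold change 1.86 ± 0.15, adjusted p = 5.05e-06). It was also among the 3 highest members in rods by mean level, with Scd2 and Fdps. Hmgcs1 rose over the ages (log2 fold change 0.84 ± 0.18, adjusted p = 0.00998), with its P30 interval reaching below 0 (0.31 (-0.05 to 0.68)). Fdps (log2 fold change 1.02 ± 0.14, adjusted p = 0.000416), Sqle (log2 fold change 0.94 ± 0.17, adjusted p = 0.00425) and Cyp51 (log2 fold change 1.53 ± 0.19, adjusted p = 0.000174) rose too. Stard4 (log2 fold change 2.1 ± 0.35) was also called, on 3 to 9 UMIs per WT library. Like Scd1, Stard4 passed the UMI filter only through the KO rods. Fdft1, Idi1 and Msmo1 complete the 13. The log2 ratios of Acss2 (-0.18) and Lpin1 (-0.55) were below 0 and did not pass the test. Counted age by age, the exact interval of the ratio lay above 0 for 15 of 29, 19 of 31 and 15 of 30 members with enough UMIs at P19, P25 and P30, and below 0 for 0, 1 and 1. These intervals cover counting error only, and no share over all genes stands beside the counts, so the counts are a description. Enough meant 20 UMIs in the WT and KO rods of an age together, so a member could enter mainly through the KO rods. Scd1 did so at P19 and P25, with 0 UMIs in WT, and it stays in the counts and medians. The median log2 ratio of the members with enough UMIs was 0.63, 0.86 and 0.50, against 0.04, 0.02 and 0.0028 over all genes compared. These medians are a description too.

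**Figure D4:**
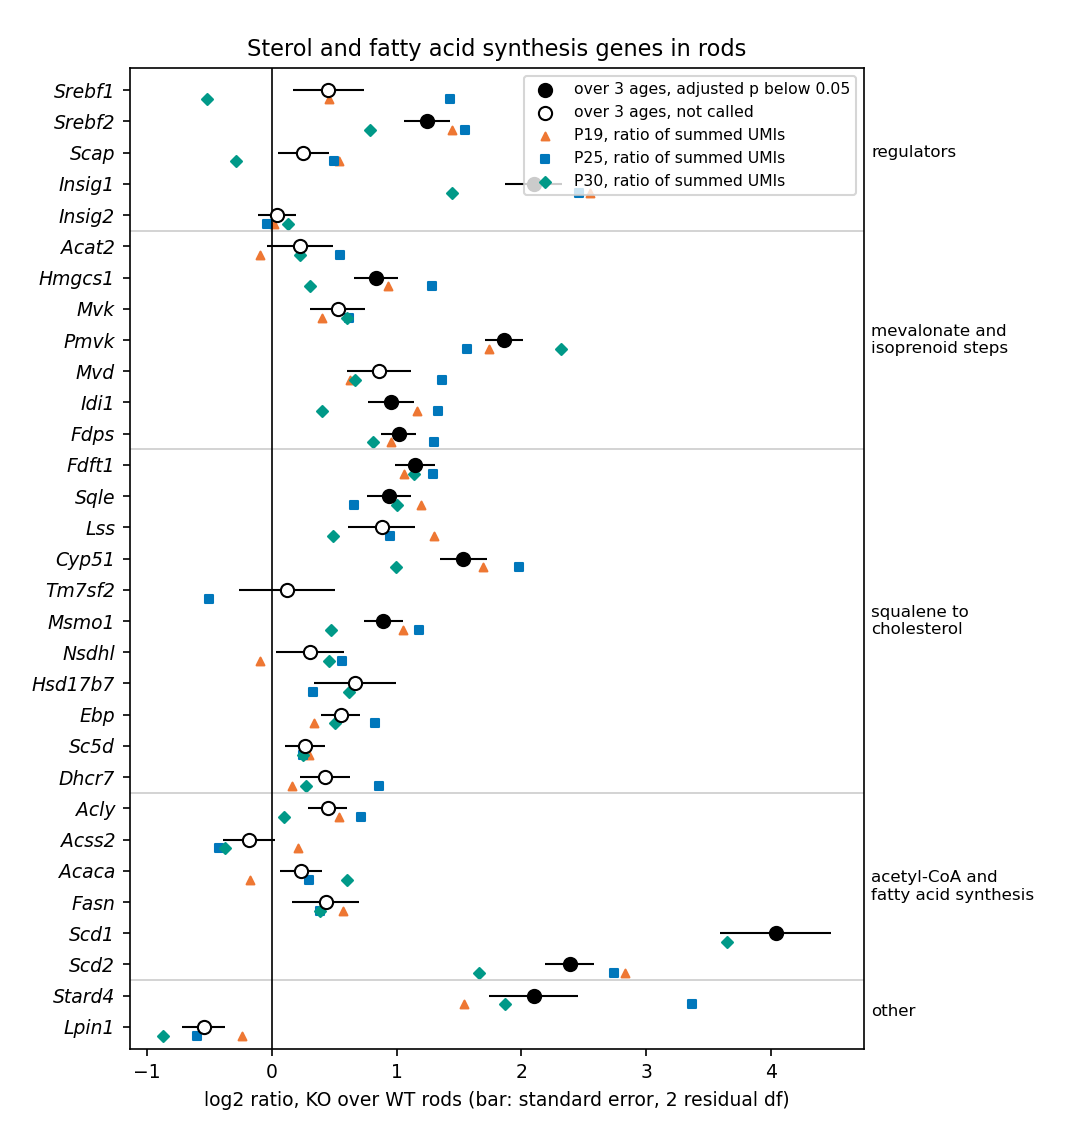
Log2 ratio of KO over WT rods for each of the 31 genes: large circles give the fit over 3 ages with its standard error (2 residual degrees of freedom), filled where the adjusted p was below 0.05, and small symbols the ratio of summed UMIs at each age, left out where a library had 0 UMIs. Scd2 lies at 2.39, Insig1 at 2.1 and Pmvk at 1.86, and the circle of Scd1, with 0 UMIs in WT at P19 and P25, depends on the prior count.

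The marker lists of rods and of other cell types were also summed in rods. The rod list was at 32192, 33897 and 66030 CPM in WT rods and at 30444, 31262 and 46484 in KO rods. The amacrine list, from the class with the highest level of the 31 genes, was at 282, 254 and 253 CPM in WT rods and 302, 263 and 147 in KO rods. The Müller list was at 187, 225 and 754 in WT rods and 244, 329 and 459 in KO rods. The microglial list was higher in KO rods at all 3 ages (0.76, 2.02 and 14.7 CPM in WT and 6.39, 4.49 and 18.3 in KO). Beside the rod list, those of cones, lens and myelin were lower at all 3 ages, with the cone list at 246, 244 and 712 in WT and 236, 243 and 398 in KO. Erythrocyte markers, at 25.0, 35.3 and 172 in WT rods and 595, 12.1 and 1380 in KO rods, differed between libraries. The part of these lists in the result was not tested.

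In cones Scd2 was the member called, 1 of 30 tested, where 0.0383% of 10449 genes passed (0.00957% higher). It held 78 UMIs in WT and 247 in KO at P19, 49 UMIs in WT and 164 in KO at P25, and 1 UMI in WT and 10 in KO at P30 (log2 fold change 2.11 ± 0.19, adjusted p = 0.00545). Insig1 (log2 fold change 1.61 ± 0.30, adjusted p = 0.243) and Srebf2 (log2 fold change 1.13 ± 0.25, adjusted p = 0.353) had values of like sign that did not pass. edgeR on the same sums called 7 members higher, where 0.775% of genes were. With P19, P25 or P30 left out, limma-trend called 2, 0 or 8 members higher, where 0.366%, 0% and 0.71% of genes were. Cones had their fewest UMIs at P30. The summed level of the 31 genes was 1.52 and 1.37 times that of WT at P19 and P25, and at P30 it was 902 CPM in WT and 915 in KO.

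In the other classes no member passed the test. Amacrine cells had the highest summed level of all classes (2746 to 2966 CPM in WT and 2218 to 2621 in KO). In them 0 of 31 members passed, where 0.0202% of genes did. Of the 31 values, 25 were below 0, with a median of -0.17, against -0.03 over all genes. At an unadjusted p below 0.05 in limma-trend, 8 members were lower, and without P19 it called 3 members lower (0.257% of genes). The count below 0 and the counts at an unadjusted p, here and in the next classes, have no share over all genes beside them. They are a description. Hmgcs1 (log2 fold change -0.50 ± 0.10, adjusted p = 0.816) and Insig1 (log2 fold change -0.55 ± 0.12, adjusted p = 0.816) were among these 8, and edgeR called 0. In bipolar cells 0 of 31 passed (0.0590% of genes), with 3 at an unadjusted p below 0.05 and 0 by edgeR. Scd2 in bipolar cells had a log2 ratio of 0.33 over the ages, with intervals above 0 at P19 (0.18 (0.02 to 0.34)) and P25 (0.31 (0.13 to 0.48)). In Müller cells 0 of 30 passed (1.06% of genes), with 4 at an unadjusted p below 0.05 and 1 higher by edgeR (4.09% of genes). With an age left out, 1 to 2 were called higher, where 1.33% to 4.21% of genes were. Scd2 had its highest level in Müller cells (481 CPM in WT and 447 in KO at P19) with a log2 ratio of 0.23 over the ages, and at P30 alone its interval lay above 0 (0.67 (0.25 to 1.12)). Fdps and Hmgcs1 led in amacrine cells, Acly and Scd2 in bipolar cells, Acly and Scap in cones, and Scd2, Msmo1 and Insig2 in Müller cells.

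Whether rods differed from another class was tested on the sums of both classes together, in a comparison added after the values were seen. The KO effect was higher in rods than in amacrine cells for 13 of 31 members (0.920% of genes), than in bipolar cells for 7 of 31 (0.489%), than in Müller cells for 2 of 30 (0.456%) and than in cones for 0 of 30 (0.299%). It was lower in rods for 0 members in each, where 0.115%, 0.0533%, 0.0475% and 0.0199% of genes were, in the same order. For Scd2 the difference from amacrine cells was 2.51 ± 0.27, adjusted p = 0.00235, from bipolar cells 2.06 ± 0.28, adjusted p = 0.00965, from Müller cells 2.16 ± 0.32, adjusted p = 0.0159 and from cones 0.28 ± 0.30, adjusted p = 0.808. Insig1 was higher in rods than in amacrine cells (2.64 ± 0.28, adjusted p = 0.00235), bipolar cells (2.05 ± 0.32, adjusted p = 0.0144) and Müller cells (1.75 ± 0.31, adjusted p = 0.0448), and its difference from cones did not pass (0.49 ± 0.37, adjusted p = 0.742). These comparisons share the rod sums. The sums of both classes in a library also come from the same dissociated pool, and the fit had no term for the library. Its p values therefore leave this pairing out. Among the 13 against amacrine cells are Scd1 and Stard4, which passed the UMI filter in rods only through the KO libraries.

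**Figure D5:**
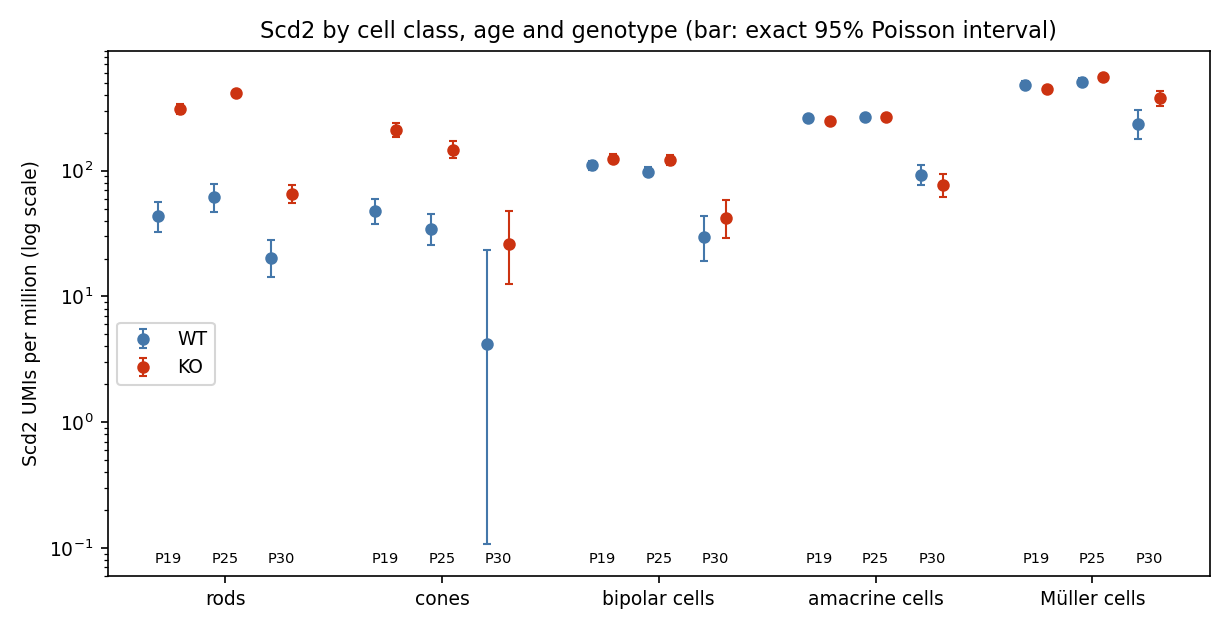
Scd2 level in CPM (log scale) in 5 retinal cell classes at P19, P25 and P30 in WT (blue) and KO (red), 1 library per point, with bars for the exact 95% Poisson interval, which covers counting error only. KO lies above WT with separate bars in rods at each age and in cones at P19 and P25, as well as in bipolar cells at P25 and in Müller cells at P30, and at each age the highest level is that of Müller cells (447 CPM in KO at P19).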

How the data were processed

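For the bulk libraries the authors deposited unnormalized counts per gene, and for single cells natural log values scaled to 10000 per cell. The submitters' processing notes name the build mm10. The sources used here name no setting for strand in the counting. Symbols and exon lengths came from GENCODE M21. Bulk counts were tested within each tissue with edgeR 4.0.16 (TMM, default filter, quasi-likelihood test, Benjamini-Hochberg adjustment) in R 4.3.3, and over all 16 libraries for the tissue comparisons. Alternatives were DESeq2 1.42.0, limma-voom, other scaling and filters, both tissues in one fit, a replicate block, a rod covariate, and each library or age left out. Single-cell values had been logged a second time: after 2 inverse steps 99.99998% were whole UMIs to within 0.01, and 7 cells held a value that was not. Cells were clustered (2000 variable genes, 30 components, 15 neighbors, Leiden resolution 1.0; leidenalg 0.10.2) and named by markers where at least 3 markers were 2-fold up and the next class had at most 0.6 times as many, a rule set after the clusters were seen. No doublet caller was run. UMIs were summed per class (at least 50 cells in each library) and tested with limma 3.58.1 on log2 CPM, prior count 2, genes with at least 20 UMIs. Same-numbered WT and KO libraries deviated together (r = 0.276, 0.161, 0.211 and 0.182 in retina and 0.572, 0.547, 0.701 and 0.326 in RPE), so by the rule that each r be over 0.1 the numbers were taken as pairs, although libraries with different numbers reached r = 0.206 in retina (from -0.253) and 0.682 in RPE (from -0.699). The tests had no replicate block except where named. The labels do not say what a number marks, and where libraries are not separate animals, p-values measure only the spread between samples. Named genes are the regulators, Hmgcs1, Sqle, Scd1, Scd2, the members with the smallest p, the extremes of each role and the highest in each class; others were chosen after their values were seen, and some results that the rule names are not reported here. The members and lists were chosen with earlier results of these data known. The tests were also run on simulated counts, with outcomes not reported here. The simulated rod counts held no age effect, unlike the real libraries. Precision is limited by 4 libraries per bulk group and 1 per single-cell group.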

Additional observations from a re-analysis of the deposited data

Results flagged for a closer look

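Of 66 groups of 4 bulk libraries examined for the named genes, 4 held a library set apart from the other 3; chance gives about 1 in 20 groups. They were Insig2 in KO retina library 4 (39.7 CPM, others 45.5 to 46.5), Scd2 in KO retina library 3 (694 CPM, others 661 to 663), Insig1 in KO RPE library 3 (48.4 CPM, others 56.4 to 58.0) and Sqle in WT RPE library 1 (108 CPM, others 91.1 to 92.6).

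The KO effect differed between tissues or classes by a test of the difference. It was lower in RPE than in retina for 24 members (5.73% of all genes). It was higher in rods than in amacrine cells for 13 (0.920%), than in bipolar cells for 7 (0.489%) and than in Müller cells for 2 (0.456%).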

How the results depend on the processing

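Requiring a fold change of at least 1.5 lowered the count of called members from 18 to 4 in retina and from 18 to 9 in RPE. With each library left out in turn, 16 to 19 members were called in retina, 13 to 19 in RPE, 24 in each case for the interaction and 26 to 28 between WT tissues. Of all genes, 25.2% to 31.8%, 3.33% to 11.1%, 6.81% to 10.7% and 82.1% to 84.5% were called, in the same order. The count between WT tissues was thus near the share of all genes. With an age left out, 12 to 18 were called in rods, 1 to 2 in Müller cells, 0 to 3 in amacrine cells, 0 in bipolar cells and 0 to 8 in cones. Of all genes in these fits, 2.64% to 8.82% rose and 1.22% to 5.08% fell in rods. In Müller cells 1.33% to 4.21% rose, in cones 0% to 0.71% rose, and in amacrine cells 0.0136% to 0.257% fell. On summed UMIs, edgeR called 1 higher in Müller cells (4.09% of genes) and 7 higher in cones (0.775%). The replicate block gave 17 calls in retina, 16 in RPE, 24 for the interaction and 28 between WT tissues, and changed, beside the calls named in the report, that of Pmvk between WT tissues (adjusted p = 0.0452). With the block, 30.2%, 6.41%, 8.37% and 84.5% of all genes were called, in the same order. Without TMM the median over all genes shifted from 0.0036 to 0.11 in retina, and 25 members were called there, 24 higher and 1 lower; with both tissues in one fit 12 were, 11 higher and 1 lower. Without TMM the median over all genes was also moved in the interaction, from -0.05 to -0.18, and between WT tissues, from 0.01 to -0.25. Some values that did not pass the test changed sign. Without TMM, Scap, Insig2 and Hsd17b7 went to 0.0942, 0.0705 and 0.0249 in retina, and Insig2 to -0.0135 in the interaction. In RPE Insig2 went to -0.0148 with the rod covariate, and without WT libraries 2 and 3 (an alternative added after the data were seen) Insig2 went to -0.0531 and Acly to 0.031. With 1 library left out, Scap ranged from -0.0422 to 0.0175, Insig2 from -0.0602 to 0.011 and Acly from -0.0163 to 0.0425 in retina, and Insig2 from -0.0177 to 0.1029 and Pmvk from -0.1518 to 0.0022 in RPE. With 1 age left out, Srebf1 ranged from -0.0191 to 0.9231 and Insig2 from -0.0008 to 0.0757 in rods. Why these moved was not tested. Scd2 in rods moved by less than its counting interval at each age under the other resolution, without the deepest 5% of cells and with TMM. Single-cell values rest on 1 library per genotype and age, so ages stand in for replicates, and low-UMI members have wide intervals.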
